A study of Mus musculus with 6 samples.

Results

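RLTR-named ERVK elements are a mixed group of rodent long terminal repeats (LTRs) of endogenous retroviruses, and their RNA was compared between wild-type mouse embryonic fibroblasts and fibroblasts lacking β-actin. The members were the repeat subfamilies that the deposited files place in family ERVK and whose name starts with RLTR. Names starting with RLTRETN or RLTR10 were left out, as were those of the RLTR9, RLTR13 and RLTR45 groups. This name and family rule matched 96 of the 1336 subfamilies. RLTR19-int and RLTR25A were treated apart because their level moved with ribosomal RNA (rRNA), which left 94 members. Of these 91 had enough counts to be tested. RLTR51A_Mm and RLTR51B_Mm carry the uncertain family label ERVK? and are not members.

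The series holds 6 libraries of total RNA depleted of rRNA, 3 from wild-type cells (WT) and 3 from Actb-/- cells (KO), described as biological replicates. Both genotypes are labelled as fibroblasts of strain BALB/c from embryos of day 10.5, and no treatment is named. Neither the number of embryos or cell lines behind the libraries nor the construction of the knockout allele is given in the sources used here. The files count repeats and no protein-coding genes, so neither Actb nor fibroblast marker genes were analysed here.

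An ERVK provirus consists of an internal region, which encodes the gag and pol proteins, between LTRs that are identical at insertion. The LTR holds the promoter, enhancer and polyadenylation signals, and recombination between the LTRs of one copy leaves a solitary LTR, the form in which most old insertions survive. In mouse embryonic stem cells many ERVK copies are kept silent by KRAB zinc finger proteins, TRIM28 and the histone methyltransferase SETDB1. The cells here are fibroblasts, in which this silencing was not tested. Names ending in -int denote internal regions, and most other names here denote LTRs.

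Library totals ranged from 7708630 to 19288620 counts, and rRNA took between 32.4% (WT replicate 1) and 84.8% (KO replicate 1) of them. This share was 63.4% ± 27.3 (SD, n = 3) in WT and 71.5% ± 16.7 in KO, and the genotypes overlapped. Tested members had a median of 123 counts in KO replicate 1, the lowest library, and 388 in WT replicate 1, the highest. Levels are given as normalized CPM, where each library's effective size rests on TMM factors (the trimmed mean of M-values method of edgeR) and makes levels relative to the bulk of repeat subfamilies. They are sums over all genomic copies of a subfamily and are not corrected for length or copy number, so they compare libraries and not subfamilies. In these bulk samples fewer cells with a transcript and less transcript per cell cannot be told apart. Of 3 repeats used in other cell types, MERVL-int and RLTR9E (embryonic stem cells and their 2-cell-like fraction) and RLTR13D5 (trophoblast), none passed the test, and their summed level was 147 to 155 normalized CPM in WT and 149 to 174 in KO. RLTR13D5 was higher in every KO library than in every WT library without passing (log2 fold change 0.29, edgeR adjusted p = 0.0678). Their part in the results below was not tested.

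As a group, the members were centred near no change relative to the bulk of repeat subfamilies, which TMM itself places near no change. Of the 91 tested, 3 rose in KO (RLTR46A2, RLTR26B_MM and RLTR49) and 3 fell (RLTR18-int, RLTR18B and RLTR1F_Mm) by edgeR's quasi-likelihood test at a Benjamini-Hochberg adjusted p below 0.05. The 6 calls are 6.59% of the members, close to the 5.78% of all 1193 tested rows that were called. Over all rows 2.18% rose and 3.6% fell. The median log2 fold change was -0.01 over the members and 0.01 over all tested rows, with 44 members above 0 and 47 below. An unadjusted p under 0.05 was reached by 18 members, 19.8%, against 20.9% of all rows. In 19 members the 3 KO libraries lay all above or all below the 3 WT libraries, which is 20.9% of members against 25.8% of all rows. In 8 of them KO lay above WT and in 11 below, where 12.4% and 13.4% of all rows did. Of the other 182 tested ERVK subfamilies, 11 rose and 4 fell, with a median of 0.03. RLTR-named subfamilies of other families, 40 of them tested, had 0 rises and 1 fall by edgeR, with 6 at an unadjusted p under 0.05.

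**Figure D1:**
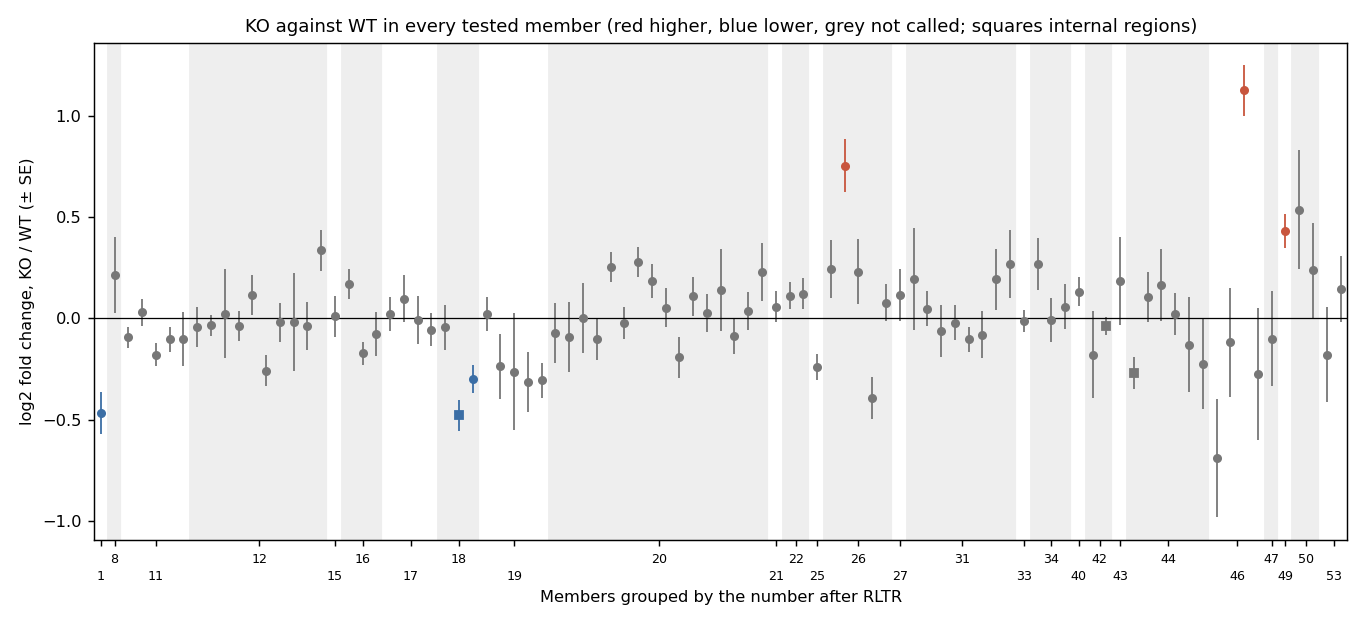
Log2 fold change of KO over WT with its standard error (vertical axis) for each of the 91 tested members, grouped along the horizontal axis by the number that follows RLTR. Most points lie within 0.3 of 0, and RLTR46A2 in group 46 and RLTR26B_MM in group 26 are the called members above 0.5.

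With TMM scaling, the precision was enough to bound most members. The TMM factors ran from 0.423 in KO replicate 1 to 3.13 in WT replicate 1, and the precision rests on them. With scaling by total counts, rRNA included, the standard error of RLTR42-int was 1.23 in place of 0.04. The values that follow are those with TMM. The standard error of the log2 fold change ranged from 0.04 to 0.32, with a median of 0.10. For 66 of 91 members, 72.5%, the 95% confidence interval lay inside a 1.5-fold change in either direction, compared with 60.6% of all tested rows. Replicates of a genotype spread by a median coefficient of variation of 9.56% in WT and 8.74% in KO. Summed over the tested members, the level was 2489, 2539 and 2491 normalized CPM in WT replicates 1 to 3 and 2461, 2439 and 2403 in the KO replicates. The sum was a little lower in every KO library than in every WT library, with means of 2506 in WT and 2434 in KO. RLTR25B, described below, is its largest part, with means of 264 in WT and 224 in KO. RLTR26D_MM had means of 113 and 86.6. Neither was called, and over all members 44 lay above 0 and 47 below, so the lower sum does not describe the members in general.

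Of the LTRs that rose, RLTR46A2 had the largest change of any member. Its level was 10.2, 11.4 and 11.1 normalized CPM in WT replicates 1 to 3 and 24.5, 20.0 and 26.7 in KO replicates 1 to 3. Every KO library was far above every WT library. The means were 10.9 ± 0.667 (SD, n = 3) and 23.7 ± 3.44, a ratio of 2.17 and a log2 fold change of 1.12 ± 0.12 (SE, edgeR adjusted p = 0.00312). This rise passed in 14 of 15 alternative settings. The exception was scaling by total counts, rRNA included. There no row of the whole table passed in edgeR (3 rows of the table had an unadjusted p under 0.05). RLTR46A2 stood at 0.71 ± 1.25 (SE). That scaling moved the median of all tested rows to -0.36.

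The other RLTR46 subfamilies, named here after their values were seen, had few counts. RLTR46, RLTR46A and RLTR46B had log2 fold changes of -0.69, -0.12 and -0.27, none of which passed (edgeR adjusted p = 0.228, 0.856 and 0.692). RLTR46 was at 1.20, 1.17 and 1.67 normalized CPM in WT and 0.735, 0.745 and 1.01 in KO, from as few as 6 counts in a library. RLTR46A2 took 61.4% ± 3.48 of the counts of the 4 RLTR46 subfamilies in WT and 81.6% ± 4.75 in KO. This share does not depend on how libraries are scaled, and its lowest KO value, 76.7%, exceeded its highest WT value, 65.2%.

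RLTR26B_MM, an LTR of the RLTR26 group, had the next largest rise. It was at 14.0, 12.2 and 15.9 normalized CPM in WT replicates 1 to 3 and 28.7, 21.4 and 23.0 in the KO replicates. The genotypes did not overlap, and KO replicate 1 was the highest library. Its means of 14.0 ± 1.82 and 24.4 ± 3.82 gave a log2 fold change of 0.75 ± 0.13 (SE, edgeR adjusted p = 0.0139). It did not pass without WT replicate 1 (0.73), without KO replicate 3 (0.78), or without both WT replicate 1 and KO replicate 2, the libraries with the least rRNA (0.84). On the total-count scale it stood at 0.31 ± 1.25 (SE).

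RLTR26D_MM, of the same group, lay in the opposite direction. Its level was 107, 121 and 112 normalized CPM in WT and 98.0, 89.3 and 72.4 in KO. All KO libraries were below all WT libraries, but the log2 fold change of -0.39 ± 0.10 (SE) missed the threshold (edgeR adjusted p = 0.0678). It passed with DESeq2 (-0.39, adjusted p = 0.00741) and without KO replicate 1 (-0.49). Within each library RLTR26B_MM took 8.10% ± 1.16 of the counts of the 5 RLTR26 subfamilies in WT and 15.1% ± 1.92 in KO, while RLTR26D_MM took 65.4% ± 2.97 and 53.5% ± 4.52. Neither share overlapped between the genotypes. Both are parts of the same total, so a change in either shifts the other and they are not separate observations. The remaining RLTR26 subfamilies, RLTR26, RLTR26_Mus and RLTR26C_MM, had log2 fold changes of 0.24, 0.08 and 0.23 and overlapped between genotypes.

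RLTR49 is the only subfamily of its number among the members. It was at 18.8, 15.7 and 18.4 normalized CPM in WT replicates 1 to 3 and 25.5, 23.8 and 23.5 in the KO replicates. The KO libraries were close together and all above WT. The log2 fold change was 0.43 ± 0.08 (SE, edgeR adjusted p = 0.0206). Among the fits with fewer libraries, the call was lost without WT replicate 3 (0.47), without KO replicate 2 (0.45), without KO replicate 3 (0.45) and without the libraries with the least rRNA (0.51). On the total-count scale, where the median of all tested rows was -0.36, it stood at 0.01 ± 1.25 (SE).

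**Figure D2:**
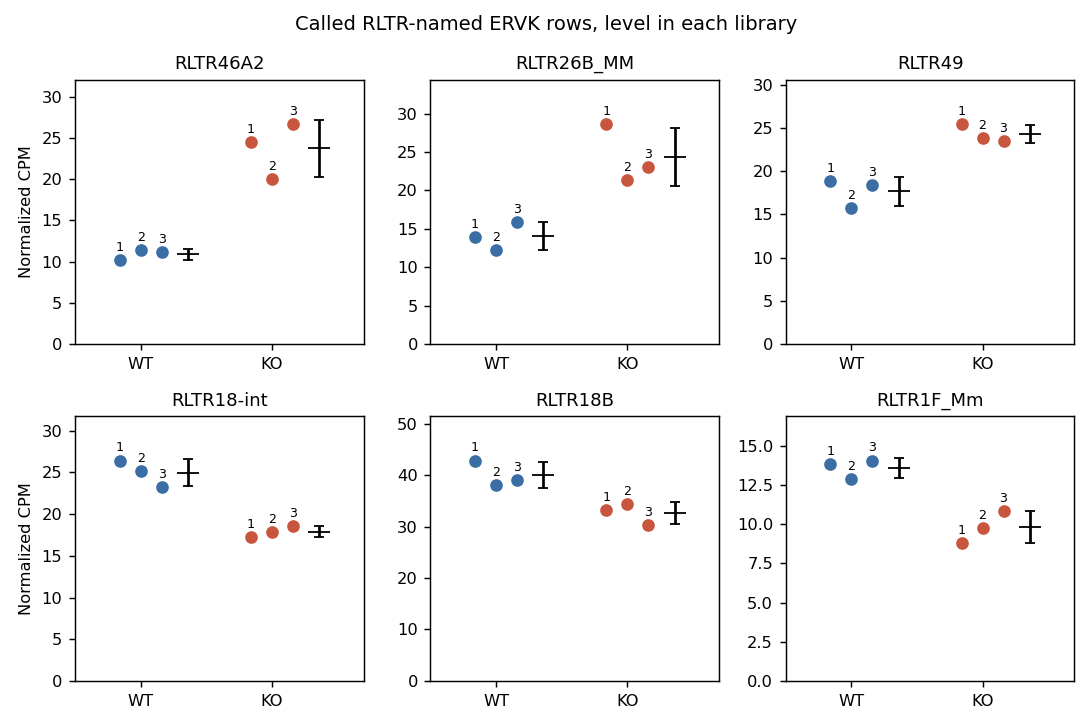
Normalized CPM (vertical axis, from 0) of the 6 called members in each library, numbered by replicate, with the mean and SD of the 3 libraries of a genotype beside the points. In each panel the KO libraries lie all above or all below the WT libraries, with the widest gap in RLTR46A2.

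Internal regions stand for the coding part of the provirus, and 3 members of this kind were tested. RLTR18-int fell and the others did not pass, where 3.6% of all tested rows fell, and a count over 3 subfamilies says nothing about internal regions in general. RLTR18-int was at 26.4, 25.2 and 23.2 normalized CPM in WT replicates 1 to 3 and 17.3, 17.8 and 18.6 in the KO replicates. The genotypes were separated by a wide gap relative to the spread within each. Its means of 24.97 ± 1.61 and 17.9 ± 0.674 gave a ratio of 0.717 and a log2 fold change of -0.48 ± 0.07 (SE, edgeR adjusted p = 0.0109). It passed in 11 of 15 settings. Among the fits with fewer libraries it did not pass without KO replicate 2 (-0.47) or without the libraries with the least rRNA (-0.41). On the total-count scale, where all 6 called members had lower values, it stood at -0.88 ± 1.26 (SE).

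Of the LTRs of this group, RLTR18B also fell and RLTR18 did not pass. RLTR18B was at 42.9, 38.1 and 39.0 normalized CPM in WT and 33.2, 34.5 and 30.4 in KO, a log2 fold change of -0.30 ± 0.07 (SE, edgeR adjusted p = 0.0462). This was the call nearest to the threshold, and it held in 1 of 15 settings, the one with no count filter. The value without a single library ran from -0.35 without KO replicate 2 to -0.24 without WT replicate 1, with -0.33 and -0.31 without WT replicates 2 and 3 and -0.31 and -0.25 without KO replicates 1 and 3. RLTR18 was at 26.9, 34.5 and 31.0 in WT and 30.5, 32.1 and 25.7 in KO, with a log2 fold change of -0.04 and a 95% interval from -0.30 to 0.21. RLTR18-int had 0.353 ± 0.0238 counts for each count of its LTR subfamilies in WT and 0.290 ± 0.0362 in KO. The genotypes just overlapped in this ratio, where WT replicate 3 and KO replicate 3 both stood at 0.332. RLTR18B took 41.8% ± 2.79 of the counts of the 3 RLTR18 subfamilies in WT and 40.8% ± 0.175 in KO. This share overlapped between genotypes as well.

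RLTR44-int had a difference in the same direction that did not pass. Its level was 43.2, 47.2 and 46.4 normalized CPM in WT and 41.5, 38.5 and 33.6 in KO, without overlap, and the log2 fold change was -0.27 (edgeR adjusted p = 0.0899). It passed without KO replicate 1, at -0.34. The 5 LTRs of the group, RLTR44A to RLTR44E, had log2 fold changes of 0.11, 0.17, 0.02, -0.13 and -0.22, and their genotypes overlapped. For each count of these LTRs RLTR44-int had 1.69 ± 0.133 in WT and 1.39 ± 0.204 in KO, and this ratio overlapped between genotypes.

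RLTR42-int was among the most even members. It was at 74.1, 78.6 and 78.2 normalized CPM in WT and 76.7, 73.1 and 74.9 in KO. Its log2 fold change was -0.04 with a 95% interval from -0.14 to 0.06, the interval with the smallest standard error of all members. Its LTR, RLTR42, averaged 81.3 counts and had a log2 fold change of -0.18 and a standard error of 0.21.

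RLTR1F_Mm, an LTR, was the remaining member that fell. It was at 13.9, 12.9 and 14.1 normalized CPM in WT replicates 1 to 3 and 8.82, 9.73 and 10.9 in the KO replicates. All KO libraries were below WT, at a mean ratio of 0.721 and a log2 fold change of -0.47 ± 0.10 (SE, edgeR adjusted p = 0.0399). No fit lacking 1 of the 6 libraries kept the call, with values of -0.45, -0.50 and -0.44 without WT replicates 1, 2 and 3 and of -0.42, -0.45 and -0.55 without KO replicates 1, 2 and 3. It was also lost with rRNA share as a covariate (-0.46, adjusted p = 0.0608) and with a minimum mean of 50 counts (-0.47), and passed with DESeq2.

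**Figure D3:**
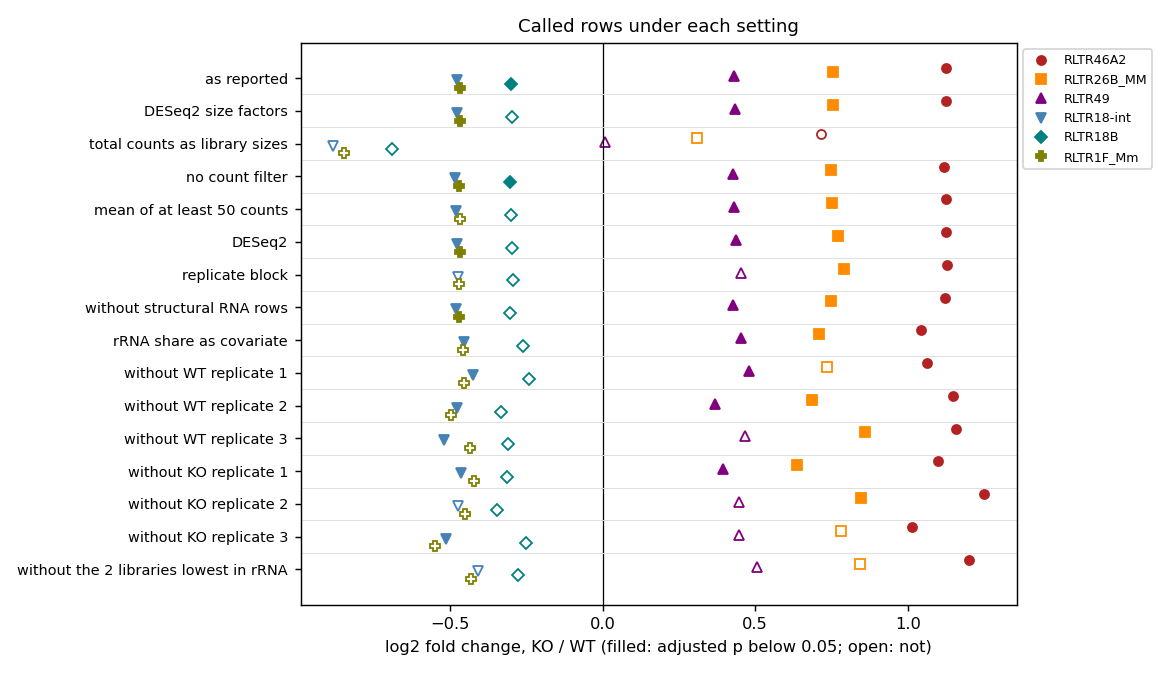
Log2 fold change of KO over WT (horizontal axis) of the 6 called members under the reported setting and the 15 alternatives (vertical axis), filled where the adjusted p was below 0.05. RLTR46A2 is filled in all settings but total-count scaling, and RLTR18B is filled under the reported setting and with no count filter.

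The 8 members with the highest level had log2 fold changes between -0.39 and 0.05, and none passed. RLTR25B had the highest level of the members, at 255, 274 and 263 normalized CPM in WT replicates 1 to 3 and 230, 229 and 211 in the KO replicates. Its KO libraries were all below WT, and the log2 fold change of -0.24 ± 0.06 (SE) missed the threshold (edgeR adjusted p = 0.0649). RLTR25B passed with DESeq2 (adjusted p = 0.0285). It made up 10.5% ± 0.283 of all member counts in WT and 9.18% ± 0.357 in KO, without overlap. RLTR12D was at 112, 127 and 110 in WT and 107, 93.5 and 92.6 in KO, also without overlap (log2 fold change -0.26, edgeR adjusted p = 0.0899), and passed without KO replicate 1, at -0.33.

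RLTR11A, RLTR11A2, RLTR11C_MM and RLTR31B2 also belonged to this abundant set. RLTR11A was at 124, 130 and 129 normalized CPM in WT and 127, 116 and 117 in KO, with a log2 fold change of -0.09 and a 95% interval from -0.21 to 0.03. RLTR11A2 had a log2 fold change of 0.03, RLTR11C_MM of -0.10 and RLTR31B2 of 0.05, with the genotypes overlapping in each. RLTR11B lies outside this set and was named after its values were seen. It was the RLTR11 subfamily whose genotypes did not overlap, at 49.3, 51.0 and 55.4 in WT and 47.0, 46.5 and 44.1 in KO (log2 fold change -0.18, edgeR adjusted p = 0.124).

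Other LTRs had separated genotypes without passing. RLTR20B1 was at 19.0, 21.1 and 21.4 normalized CPM in WT and 23.5, 25.7 and 24.3 in KO, at 0.28 on the log2 scale (edgeR adjusted p = 0.0729). RLTR12H was at 8.34, 7.67 and 8.07 in WT and 10.3, 10.03 and 10.4 in KO, the highest log2 fold change, 0.34, among members that were not called and averaged at least 50 counts (edgeR adjusted p = 0.0998). In both, each KO library exceeded each WT library. RLTR20A3_MM was at 29.8, 32.1 and 30.2 in WT and 32.2, 37.3 and 39.0 in KO (log2 fold change 0.25, edgeR adjusted p = 0.0953), and passed, at 0.31, when KO replicate 1 was left out. RLTR34B_MM and RLTR31_Mur, with log2 fold changes of 0.27 each, overlapped between genotypes.

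The large groups showed little common movement. RLTR20 is the largest, with 16 tested LTRs, of which 10 were above 0 and 6 below, with a median of 0.03, a range from -0.19 to 0.28 and no calls. The 10 RLTR12 LTRs ranged from -0.26 to 0.34 with a median of -0.03, and the 8 RLTR31 LTRs from -0.10 to 0.27 with a median of 0.01. The 4 RLTR17 LTRs were nearest to level, between -0.06 and 0.10, and in none of them were the genotypes apart. RLTR12BD_Mm, RLTR44C and RLTR15 varied least of the members, with a highest library 1.07 times the lowest in each.

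RLTR19 LTRs were mostly below 0. Of 5 tested, 4 lay between -0.31 and -0.24 and RLTR19 itself at 0.02, with a median of -0.26 and no calls. RLTR19C was at 16.6, 18.2 and 19.0 normalized CPM in WT and 15.3, 14.1 and 14.2 in KO, without overlap (log2 fold change -0.31, edgeR adjusted p = 0.0807). RLTR19B was at 12.6, 16.8 and 15.5 in WT and 12.7, 12.9 and 9.78 in KO, and here the genotypes overlapped. RLTR19A and RLTR19A2 had standard errors of 0.16 and 0.29, from as few as 39 and 7 counts in a library.

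The internal region of the same name and RLTR25A were set apart from the members because their level moved with rRNA. The values below describe that trait, and their contrast with the members follows from the choice. RLTR19-int was at 1546, 20733 and 7818 normalized CPM in WT replicates 1 to 3 and 21696, 2971 and 9140 in the KO replicates. RLTR25A was at 863, 12993 and 5436 in WT and 12791, 1654 and 5632 in KO. In both, WT replicate 1 and KO replicate 2 were the lowest libraries and WT replicate 2 and KO replicate 1 the highest, as they were for rRNA. RLTR19-int had the same order of libraries as rRNA throughout, whereas for RLTR25A the upper pair was exchanged. For every 100 counts of rRNA there were 0.989 to 1.49 counts of RLTR19-int and 0.631 to 0.832 of RLTR25A.

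Their genotype comparison carries little information. The log2 fold change of RLTR19-int was 0.17 with a 95% interval from -1.88 to 2.21, and that of RLTR25A 0.06 with an interval from -2.03 to 2.15. Together they took between 14.6% and 41.4% of all ERVK counts of a library, the least in WT replicate 1 and the most in WT replicate 2. RLTR19-int had 28.3 to 406 times the counts of the 6 RLTR19 LTR members, RLTR19D included. RLTR25B, by contrast, ranged only from 211 to 274 normalized CPM. The median ratio of highest to lowest library was 1.34 in the members and 1.41 in all rows. What produces the parallel with rRNA was not tested.

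**Figure D4:**
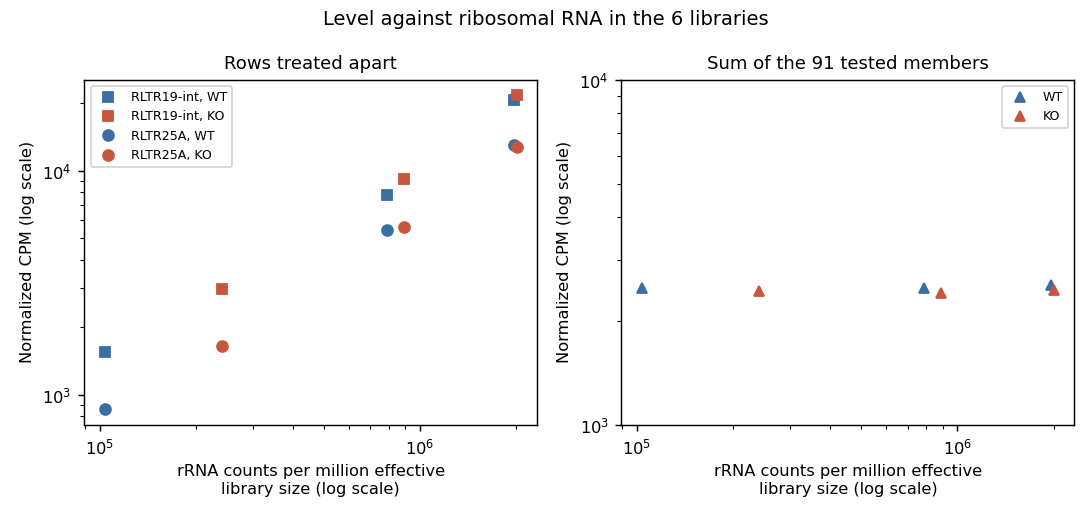
Normalized CPM (vertical axis, log scale) of RLTR19-int and RLTR25A (left) and of the sum of the 91 tested members (right) against rRNA as CPM of the effective library size (horizontal axis, log scale) in the 6 libraries. Both rows on the left, which were set apart for this trait, climb with rRNA in either genotype, from 863 to 12993 for RLTR25A. The sum on the right stays between 2403 and 2539.

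The 3 members without a test had too few counts to be compared. RLTR19D had 34, 8 and 5 counts in WT replicates 1 to 3 and 6, 4 and 12 in the KO replicates. RLTR3_Mm had 20, 3 and 9 counts in WT and 9, 9 and 8 in KO. RLTR43B had 1 count, in WT replicate 3. At the low end of the tested members, RLTR50A, named after its values were seen, was at 0.747, 1.30 and 1.18 normalized CPM in WT and 1.35, 1.44 and 1.55 in KO, from 10 counts or more per library, and its log2 fold change was 0.54 (edgeR adjusted p = 0.354).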

How the data were processed

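The authors deposited, for each library, estimated counts of reads per repeat subfamily, called fraction counts in the file names, without normalization. All values were whole numbers. The submitters' processing notes name Bowtie2, Trimmomatic and FastQC 0.11.5, and the builds mm10 and GRCm38. Not given in the sources used here are the repeat counter, the repeat annotation, the use of strand and the way reads matching several subfamilies were divided, so similar subfamilies may share reads. Counts cover all copies, including those inside genes. Repeat sequences were not analysed here.

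KO was compared with WT in edgeR 4.0.16 (R 4.3.3): filterByExpr over all rows, TMM, and the quasi-likelihood test, with p adjusted by Benjamini-Hochberg over all tested rows. Standard errors and intervals were derived from that test's p-value and degrees of freedom. The procedure was also run on simulated counts, drawn independently for each library. These held no deviations shared between libraries, so that run cannot show how the calls fare under such deviations. Alternatives were DESeq2 1.42.0 or its size factors, total-count scaling, other filters, leaving out structural RNA or libraries, an rRNA covariate and a replicate block.

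Members, lists and tests were chosen with earlier results of these data known. Named members were all called ones, the 8 with the highest level, the 8 with the smallest p among those not called, the 4 highest and 4 lowest fold changes not called with at least 50 counts on average, internal regions with their groups, and both rows treated apart. Counting depth limits the precision for rare subfamilies. The p-values set the difference between genotypes against the spread between these libraries. The number of embryos or cell lines is not given, so they may not cover the spread between animals or lines.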

Additional observations from a re-analysis of the deposited data

How the results depend on the processing

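With 3 members higher and 3 lower and 69 rows called in all as reported, scaling by total counts gave 0, 0 and 0. A mean of at least 50 counts left 1 lower member, and rRNA share as a covariate left 1. Without structural RNA 41 rows were called in all, some of the difference being structural rows no longer tested. Without the 2 libraries lowest in rRNA 9 rows were called, 1 higher member (RLTR46A2) and 0 lower. Leaving out single libraries gave 22 to 69 calls in all, 1 to 4 higher members and 0 to 4 lower members. Without KO replicate 1 there were 4 called members that had not been called, and with DESeq2 there were 2. In every setting all 6 called members kept the sign of their fold change. Where libraries were left out this is nearly fixed, because their groups do not overlap. Total-count scaling does not fix it, and RLTR49 stood there at 0.01 ± 1.25 (SE). RLTR12H, RLTR20B1 and RLTR20A3_MM, also without overlap but not called, changed sign on that scale (-0.06, -0.02 and -0.07). With the replicate number as a block (replicate block) 24 rows were called in all, with 2 higher members, RLTR46A2 and RLTR26B_MM, and 0 lower. That block ended the calls of RLTR49 (0.45, edgeR adjusted p = 0.0569), RLTR18-int (-0.47, edgeR adjusted p = 0.0569), RLTR18B and RLTR1F_Mm. The labels tie no number to a litter or batch, so the libraries were not paired. Deviations from the genotype means had correlations of -0.44, -0.39 and 0.02 between libraries of one number. Centring within each genotype ties the correlations between libraries to each other, so they cannot show that libraries of one number share no effect. The correlation was 0.51 for WT replicate 1 with KO replicate 2, the libraries with the least rRNA. It was 0.34 for WT replicate 2 with KO replicate 1, those with the most. Other pairs of unlike number lay between -0.13 and 0.10. The median over members was -0.37 on the total-count scale. The cause of these shifts was not tested. Depth limits RLTR46, RLTR19A2 and RLTR50A most.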

Other observations

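The RLTR-named subfamilies of uncertain family ERVK?, which the name and family rule leaves out, were level between genotypes. RLTR51A_Mm was at 10.2 ± 0.778 normalized CPM (SD, n = 3) in WT and 10.4 ± 0.508 in KO, and RLTR51B_Mm at 17.9 ± 2.28 and 18.4 ± 3.36. Their log2 fold changes were 0.05 (95% interval -0.20 to 0.29) and 0.04 (-0.28 to 0.36), and neither passed (edgeR adjusted p = 0.856 and 0.911).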
